A study of Mus musculus with 16 samples.

Results

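The histone variants analysed here are the products of 8 genes, H2afz, H2afv, H2afx, H2afy, H2afy2, H2afj, H3f3a and H3f3b, which were taken by gene symbol from the 24972 genes listed for each library. All 8 were found in all 16 bulk RNA-sequencing libraries, and all 8 passed the filter on low values in every comparison. The libraries came from dorsal hippocampus of adult ArcCreERT2::eYFPflx mice on a C57BL/6 background, a line in which an inducible Cre driven by the Arc gene switches on a fluorescent reporter; trained and untrained mice both carried these alleles. Trained mice (n = 3) had learned active place avoidance, a task on a turning platform with 1 sector that gives foot shocks, and untrained mice (n = 3) had the same trials with the shock never on. Tissue was taken after a retention test without shock and was dissected by hand into dentate gyrus (DG), CA3 and CA1, pooling the pieces of each mouse by subregion. CA1 had 3 trained and 3 untrained libraries, CA3 had 3 trained libraries and untrained replicates 1 and 2, and DG had 3 trained libraries and untrained replicates 1 and 3. The comparisons ask whether variant transcripts differed with training within each subregion, whether that difference varied between subregions, and whether their levels differed between subregions.

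Several properties of the libraries bear on every value below. The subregion labels were not separated by DG markers: Prox1, a transcription factor of dentate granule cells, ranged from 3052 to 3861 in libraries labelled CA1, from 2690 to 4786 in those labelled CA3 and from 3292 to 4183 in those labelled DG. Fibcd1, a CA1 marker, was at 921 to 1417 in untrained CA1, 409 to 504 in trained CA1 and 210 to 685 in the other libraries. The CA1 markers Wfs1 and Pou3f1 stood above all CA3 libraries in trained CA1, but overlapped with DG. Wfs1 was at 472 to 681 in trained CA1, 244 to 423 in CA3 and 304 to 558 in DG. For CA1 against CA3, all 3 CA1 markers had an unadjusted p under 0.05 in limma and 0 were called. Separation by CA1 markers was thus partial, and subregion names are used as labels of libraries. The methods give both sexes in each training group, but Xist, transcribed from the inactive X chromosome, was at 7601 to 19592 in all 9 trained libraries and at 25.5 to 52.4 in 6 of 7 untrained libraries; the remaining one, untrained CA3 replicate 1, was at 10587. Y-linked Ddx3y was at 448 to 553 in those 6, and 5 libraries held it together with high Xist: untrained CA3 replicate 1 (201.4), trained DG replicate 3 (255), trained CA1 replicates 1 (70.9) and 3 (101) and trained CA3 replicate 3 (92.9), the other 5 trained libraries being at 1.66 to 12.9. Libraries given as 1 mouse thus disagreed, since untrained replicate 1 had low Xist in CA1 and DG and high Xist in CA3, so values that take the replicate number as an animal rest on labels that these transcripts go against. Training and sex-linked transcripts can hardly be told apart. The sums of values were within 7607326 to 7984931, while the number of genes listed at 0 fell into 2 ranges, 3124 to 5944 in 9 libraries and 7567 to 9759 in the other 7, which include every trained CA1 and every untrained DG library. Every untrained CA1 and every trained DG library was among the 9. The training difference in CA1 set against that in DG therefore follows this split and cannot be told apart from it. In bulk tissue, fewer cells of a type and less RNA per cell cannot be told apart.

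Histone variants replace the histones made during DNA replication and are the main source of new histones in neurons, which no longer divide. H2A.Z is exchanged for H2A near transcription start sites and at enhancers by remodelling complexes such as SRCAP and p400/TIP60, and its exchange in the hippocampus has been tied to memory formation. H3.3 is deposited in transcribed genes by HIRA and at repeats by ATRX and DAXX, H2A.X is phosphorylated around DNA breaks, and macroH2A carries a large macro domain and is known from repressed chromatin such as the inactive X chromosome.

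H2A.Z and H3.3 are each encoded by a pair of genes, so that transcripts that differ widely can give nearly the same protein. H2afz and H2afv differ at 81 of 387 coding bases, which changes 3 of 128 residues, and H3f3a and H3f3b differ at 95 of 411 coding bases, which changes 0 of 136 residues. The first 90 coding bases of the main transcript of each (GENCODE annotation, GRCm38) are shown. Within the coding part, such differences are what let reads be assigned within a pair. Capitals mark the bases at which the members of a pair differ, 19 for H2A.Z and 20 for H3.3.
H2afz: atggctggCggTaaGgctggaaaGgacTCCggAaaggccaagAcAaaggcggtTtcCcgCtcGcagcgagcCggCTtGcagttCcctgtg
H2afv: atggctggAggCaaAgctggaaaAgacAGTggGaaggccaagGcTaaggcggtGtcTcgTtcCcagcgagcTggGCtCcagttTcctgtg
H3f3a: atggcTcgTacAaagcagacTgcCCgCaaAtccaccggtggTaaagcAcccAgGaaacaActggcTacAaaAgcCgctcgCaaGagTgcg
H3f3b: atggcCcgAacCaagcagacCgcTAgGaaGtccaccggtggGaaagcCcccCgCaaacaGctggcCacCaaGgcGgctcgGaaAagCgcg

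The promoters of H2afz and H3f3b are shown because these were the 2 members called higher in trained libraries over all subregions, and across the 16 libraries their log2 values, after removal of subregion means, had a Pearson r of 0.85, the highest among pairs of members, with training shared by all points. RefSeq (GRCm38.p6) gave a start for 7 of the 8 members, H2afx being the exception. Capitals mark CCAAT, or ATTGG where it lies on the other strand, in the 250 bases before the start, written on the strand of the gene. These are chr3:137864237-137864486 on the plus strand for H2afz and chr11:116024505-116024754 on the minus strand for H3f3b. The H3f3b window lies inside the span that GENCODE gives for the gene (chr11:116021912-116027962), after its 5′ end. The bases before that 5′ end were not searched.
H2afz: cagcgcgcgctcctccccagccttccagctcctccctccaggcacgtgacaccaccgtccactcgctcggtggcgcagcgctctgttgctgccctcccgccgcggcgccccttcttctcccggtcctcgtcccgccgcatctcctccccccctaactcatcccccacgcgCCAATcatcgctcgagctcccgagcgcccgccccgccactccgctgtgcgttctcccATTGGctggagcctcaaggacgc
H3f3b: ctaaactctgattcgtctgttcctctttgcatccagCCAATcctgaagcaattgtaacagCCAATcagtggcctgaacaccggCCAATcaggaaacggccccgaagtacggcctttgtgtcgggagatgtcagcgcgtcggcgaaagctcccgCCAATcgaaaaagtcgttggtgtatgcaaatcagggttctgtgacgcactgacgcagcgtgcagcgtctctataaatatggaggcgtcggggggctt
H2afz held 2 matches to CCAAT and H3f3b held 4. H2afv also held 4, H2afj held 3, H3f3a held 1, and H2afy and H2afy2 held 0. Of 32817 promoters of the same length, 33.8% held at least 1 match, 10.1% at least 2 and 0.83% at least 4. H3f3b further held TATAAA, found in 12.4% of promoters, and 2 copies of TGACG, the core of a cAMP response element, of which 3.9% of promoters held at least 2. The H2afz window held neither, but held CACGTG, found in 6.02%. Motifs were searched on both strands, no matches in the windows shown overlapped, and a match is not evidence of a bound factor.

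H3.3 and H2A.Z transcripts were the most abundant of the members. Mean values over the 16 libraries were 1046 for H3f3b, 980 for H3f3a, 544 for H2afz, 434 for H2afy, 140 for H2afv, 90.4 for H2afx, 87.2 for H2afj and 53.2 for H2afy2, in units of normalized estimated counts. Genes differ in length, so levels were compared per kilobase. Divided by the length of all exons together, the levels were 351 for H3f3b, 307 for H2afz, 280 for H3f3a, 86 for H2afv, 65.3 for H2afx, 63.7 for H2afy, 47.6 for H2afj and 24.5 for H2afy2. This order depended on the length used. With the median transcript length H3f3a was highest, at 1350 per kilobase against 730 for H3f3b, 672 for H2afz and 474 for H2afy, whereas H2afy2 stayed at 24.5 because it has 1 annotated transcript. The plot of the members by library shows that most groups lay close together and that H2afz was the gene whose trained and untrained values stood apart in every subregion.

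**Figure D1:**
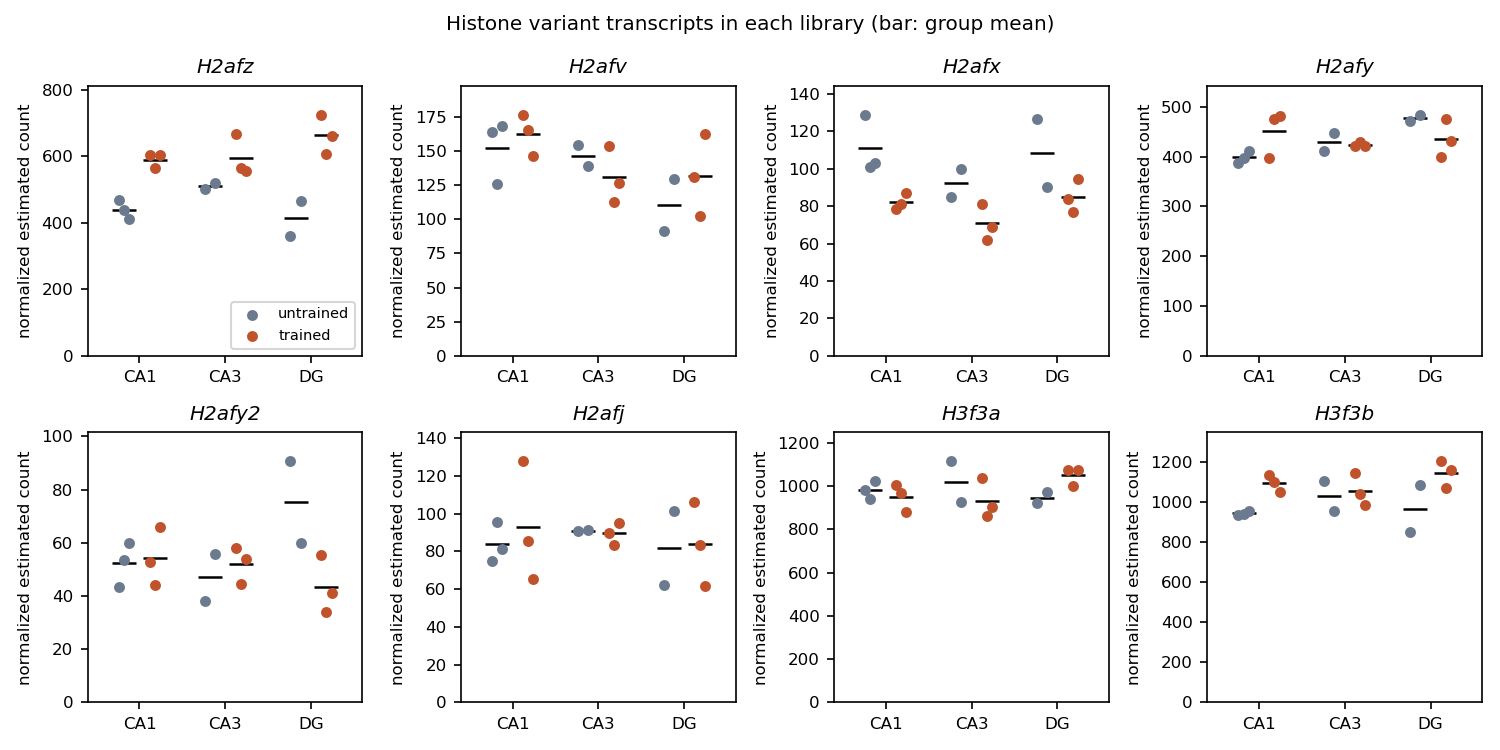
Normalized estimated count (y axis, from 0) of each histone variant gene in each library, by subregion label (x axis) and training (grey-blue untrained, orange trained); points are libraries and bars are group means. For H2afz every trained library, from 556 to 724, lies above every untrained library, from 360 to 518.

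H2afz, which encodes H2A.Z.1 (chr3:137864487-137866922, plus strand), was higher in trained than in untrained mice. In CA1 it was at 602, 565 and 602 in trained replicates 1 to 3 and at 469, 439 and 411 in untrained replicates 1 to 3. In CA3 it was at 665, 564 and 556 in trained libraries and at 502 and 518 in untrained libraries. In DG it was at 724, 608 and 660 in trained libraries and at 360 and 466 in untrained libraries. The groups did not overlap in any subregion, and the lowest of all trained libraries lay above the highest of all untrained libraries. The fold difference between trained and untrained was 1.341 (95% interval 1.195 to 1.506) in CA1, 1.161 (1.003 to 1.345) in CA3 and 1.614 (1.368 to 1.905) in DG. In CA1 the log2 difference was 0.42 ± 0.08 (SE, n = 3 and 3) with an adjusted p of 0.00297 in limma. In DG it was 0.69 ± 0.11 (SE, n = 3 and 2) with an adjusted p of 0.00634 in limma, which became 0.0553 without trained replicate 2. In CA3 the difference of 0.22 ± 0.10 (SE) did not pass, with an adjusted p of 0.308 and an unadjusted p of 0.0464 in limma. Over all subregions it was 0.44 ± 0.07 (SE, n = 9 and 7 libraries), with an adjusted p of 0.000498 in limma. These libraries come from 3 trained and 3 untrained mice, up to 3 from each mouse, so n exceeds the number of animals in every comparison over all subregions. With the animal as a random effect the adjusted p was 0.000289 in limma.

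These calls stand against a large number of genes that differed with training. H2afz was the 1 member of 8 called in CA1, where 3.53% of 13588 tested genes were called higher in trained, and the 1 member called in DG, where 1.74% of 13935 were called higher. In CA3, where 0.852% of 13848 genes were called in either direction, 0 of 8 members passed in limma and 2 (H2afz and H2afx) had an unadjusted p under 0.05, as had 15.8% of all genes. Over all subregions 6.28% of 14673 genes were called higher and 4.06% lower, and 3 of the 8 members passed, H2afz and H3f3b as higher and H2afx as lower. The median log2 difference of the 8 members there was 0.03, beside -0.01 over all genes tested. Separation of groups of this size is common: trained and untrained values did not overlap for 24.0% of genes in CA1, 33.9% in CA3 and 35.6% in DG, and for 3, 2 and 3 members. Only H2afz of the 8 had trained above untrained in each of the 3 subregions, as did 1.62% of all genes tested.

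**Figure D2:**
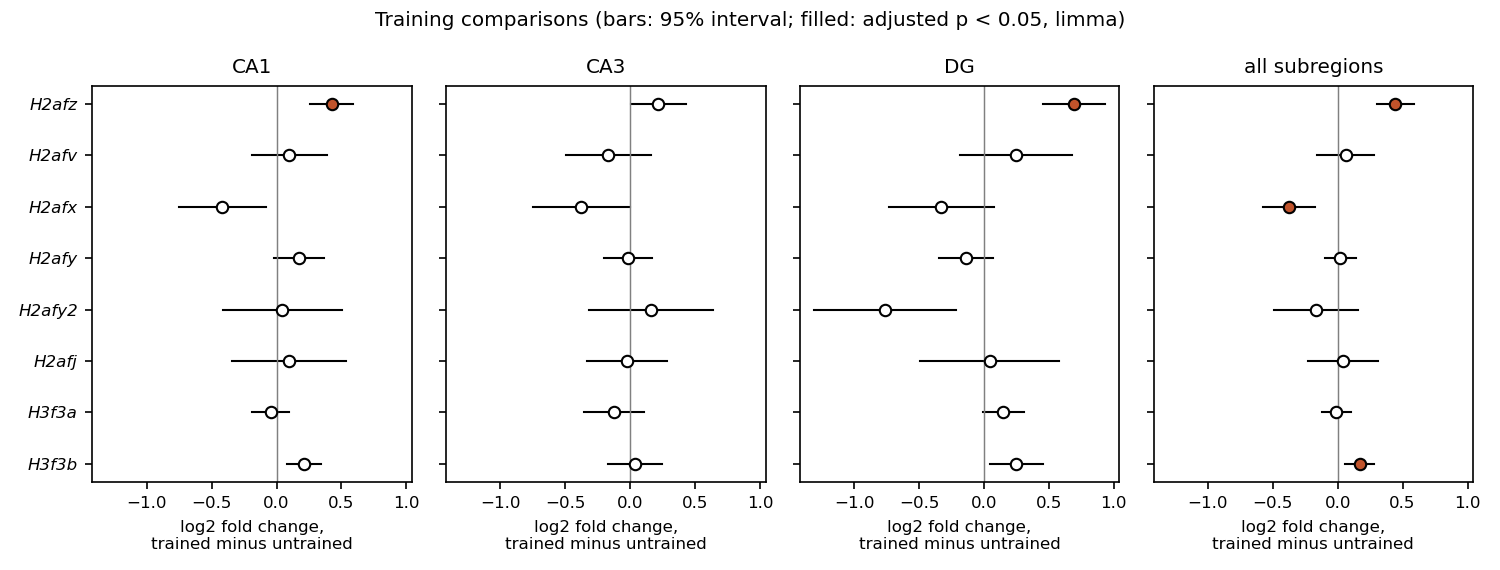
Log2 fold change of each member, trained minus untrained (x axis), within CA1, CA3 and DG and over all subregions; lines are 95% intervals and filled points have an adjusted p under 0.05 in limma. H2afz is filled in CA1, DG and over all subregions, and H2afx (-0.38) and H3f3b (0.17) are filled over all subregions alone.

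The H2afz values have a limit in how its reads can be assigned. Of the 1039 windows of 31 bases in the main H2afz transcript, 639 (61.5%) occur, in reverse complement, in a retained-intron transcript of Tmcc1 (Tmcc1-211), a gene for a membrane protein of the endoplasmic reticulum, and whether the counting used the strand of reads is not given in the sources used here. Tmcc1 went the other way. It was at 1179, 1232 and 1230 in trained CA1 and at 1379, 1313 and 1373 in untrained CA1. In CA3 it was at 1233, 1226 and 1163 in trained and at 1391 and 1338 in untrained libraries, and in DG at 1167, 1120 and 1114 against 1206 and 1206. Its groups did not overlap in any subregion, and over all subregions its log2 difference was -0.14 ± 0.04 (SE), with an adjusted p of 0.012 in limma.

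The size of both shifts was close in CA1 and not in DG. In CA1 the mean of H2afz was higher in trained by 150 and that of Tmcc1 differed by -142, and in CA3 these differences were 84.5 and -157. In DG they were 251 and -72.5. The sum of both genes was 1781 to 1832 in trained and 1752 to 1848 in untrained CA1, 1719 to 1898 in trained and 1856 to 1893 in untrained CA3, and 1727 to 1890 in trained and 1566 to 1672 in untrained DG. The groups of sums overlapped in CA1 and CA3 and not in DG. In limma, the log2 difference of the sum was 0.01 in CA1 with an adjusted p of 0.966, -0.06 in CA3 with 0.745, 0.15 in DG with 0.238 (unadjusted p = 0.0434) and 0.03 over all subregions with 0.675. The part of shared sequence in the H2afz result was not tested.

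**Figure D3:**
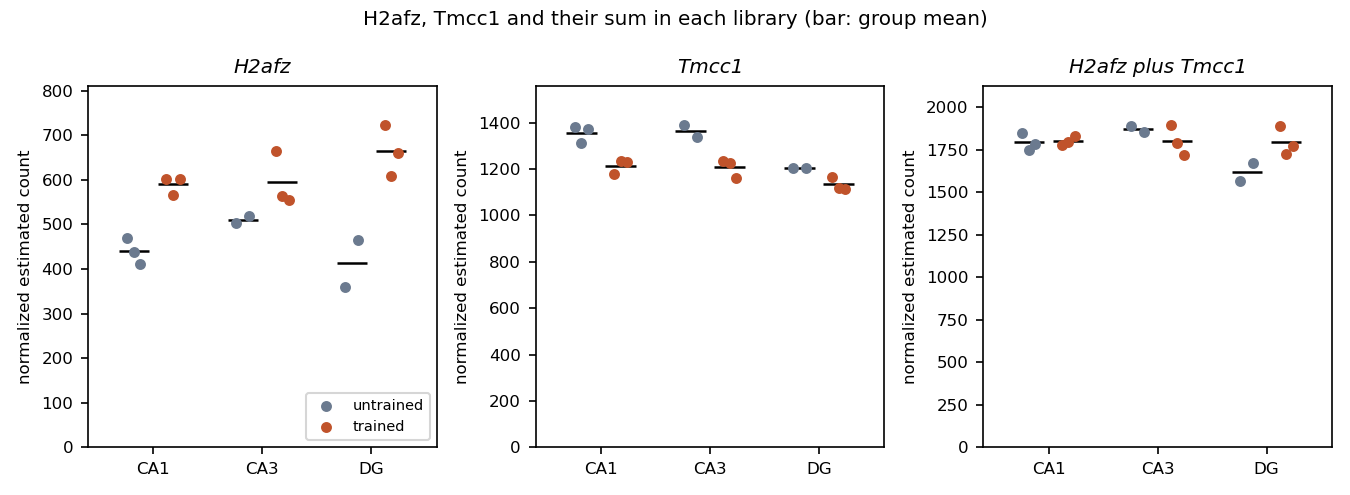
Normalized estimated count (y axes, from 0) of H2afz, of Tmcc1 and of their sum in each library, by subregion label and training (grey-blue untrained, orange trained; bars are group means). H2afz is higher and Tmcc1 lower in trained libraries of each subregion, and the sums overlap in CA1 and CA3 but not in DG.

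H2afv, which encodes H2A.Z.2 (chr11:6427229-6444443, minus strand), did not pass in any training comparison. Its values ranged from 146 to 176 in trained and 126 to 168 in untrained CA1, from 113 to 154 and 139 to 154 in CA3, and from 103 to 162 and 91.6 to 129 in DG. Trained and untrained groups overlapped in each. Its log2 difference over all subregions was 0.06 (95% interval -0.16 to 0.28), so differences within that interval could not be seen. H2afz took most of the combined H2afz and H2afv value. Its share was 77.3 to 80.4% in trained and 71.0 to 77.7% in untrained CA1, 81.2 to 83.3% and 76.5 to 78.9% in CA3, and 80.3 to 85.6% and 78.3 to 79.7% in DG. The share was higher in every trained library than in every untrained library of CA3 and DG, whereas the groups overlapped in CA1. Per kilobase the share over the 16 libraries was 69.2 to 84.5% with all exons and 76.5 to 88.7% with the median transcript. Shares are given as a description, and that of H2afz carries the same limit as its values.

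**Figure D4:**
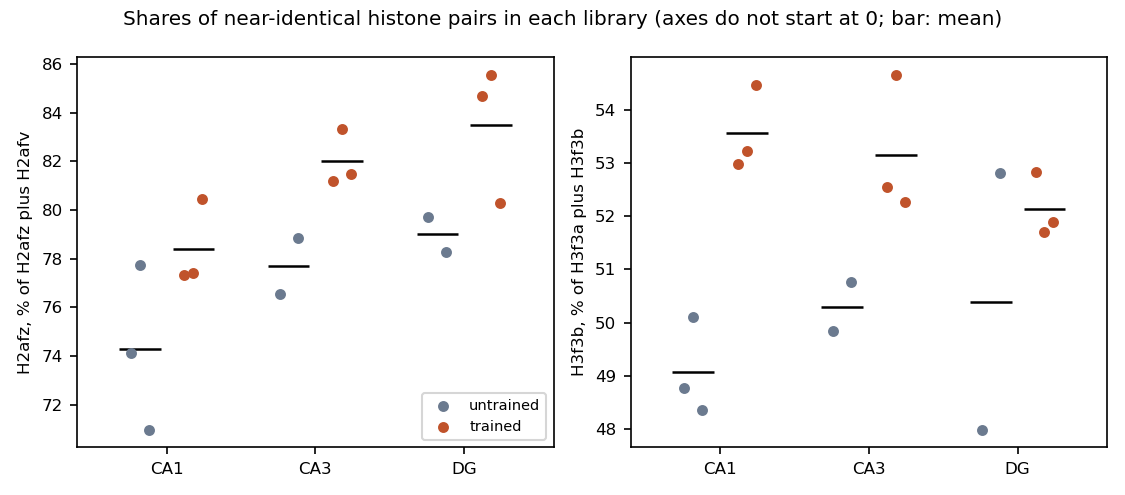
Share of H2afz in H2afz plus H2afv (left) and of H3f3b in H3f3a plus H3f3b (right), in percent of normalized estimated counts, per library by subregion label and training; points are libraries, bars are means and the y axes do not start at 0. Trained means lie above untrained means for both shares in every subregion, with overlap in CA1 for H2afz and in DG for H3f3b.

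H2afx, which encodes H2A.X (chr9:44334694-44336077, plus strand), was lower in trained mice over all subregions. It was at 78.4, 81 and 87.2 in trained and 129, 101 and 103 in untrained CA1. In CA3 it was at 81.2, 61.9 and 69.1 in trained and 84.6 and 99.8 in untrained libraries, and in DG at 83.6, 76.7 and 94.2 against 126 and 89.9. Groups did not overlap in CA1 and CA3, while in DG trained replicate 3 lay above untrained replicate 3. The log2 difference was -0.38 ± 0.10 (SE, n = 9 and 7 libraries of 3 and 3 mice) over all subregions, a fold of 0.77 (95% interval 0.67 to 0.88), with an adjusted p of 0.0136 in limma, and 0.0097 with the animal as a random effect. It did not pass within CA1 (-0.42, adjusted p = 0.15), CA3 (-0.38, 0.311) or DG (-0.33, 0.374) in limma. In DG it was -0.09 (adjusted p = 0.872) without untrained replicate 1 and -0.57 (0.0735) without untrained replicate 3 in limma, each of which leaves 1 untrained library. Over all subregions it no longer passed without trained replicate 2 (adjusted p = 0.0991), untrained replicate 1 (0.145) or untrained replicate 2 (0.0532) in limma.

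The summed value of markers of dividing cells, in which H2A.X is also made, was lower in trained libraries. For 4 such genes the sum was 18.2 to 38.5 in trained and 64.5 to 97.0 in untrained CA1, 14.3 to 46.6 and 69.9 to 72.1 in CA3, and 34.0 to 48.0 and 54.8 to 84.2 in DG. Over all subregions 3 of the 3 that could be tested (Mki67, Top2a and Ccnb1) were called lower. In DG, Ccnb1 overlapped between groups and Cdk1 went the other way, at 3.42 to 7.53 in trained and 2.59 to 2.80 in untrained libraries. Of 4 markers of immature neurons 3 (Dcx, Sox11 and Igfbpl1) were called lower over all subregions. The sum of the 4 was 472.8 to 689.4 in trained and 688.8 to 928.7 in untrained libraries. In DG, Igfbpl1 overlapped between groups, at 10.2 to 21.1 in trained and 12.2 to 15.9 in untrained libraries. Neurod4 went the other way there, with a median of 6.62 in trained and 0.47 in untrained libraries. Of 3 neuron markers 1 (Snap25) was called higher. Of 4 CA3 markers 3 (Bok, Cdh24 and Grik4) were also called higher over all subregions, and Aqp4, 1 of 4 astrocyte markers, was called lower. Within CA1 all 3 neuron markers and the same 3 CA3 markers were called higher, and Mki67, Igfbpl1, Sox11, Fibcd1 and Aqp4 lower. In CA3 the CA3 marker Cdh24 was called higher and Ttr, of the choroid plexus, lower, by a log2 value of -3.29. In DG, Prox1 and the endothelial Flt1 were called lower. The part of these markers in the values of the members was not tested. The 8 genes that phosphorylate or read H2A.X had 0 called over all subregions in limma and 2 with an unadjusted p under 0.05, as had 25.5% of all genes, with a median log2 difference of -0.09.

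The macroH2A genes did not pass in any training comparison. H2afy, which encodes macroH2A1 (chr13:56073619-56136361, minus strand) and whose splice isoforms share 1 gene value, ranged from 396 to 482 in trained and 387 to 412 in untrained CA1, from 421 to 429 and 412 to 447 in CA3, and from 400 to 476 and 472 to 484 in DG. The groups overlapped in each subregion, and the log2 difference over all subregions was 0.02 (95% interval -0.10 to 0.14). H2afy2, which encodes macroH2A2 (chr10:61738665-61784147, minus strand), was at 55.4, 34.1 and 41.2 in trained DG and at 90.6 and 59.8 in untrained DG. The DG groups did not overlap, but the log2 difference of -0.76 ± 0.26 (SE) had an adjusted p of 0.113 in limma. It passed without untrained replicate 3 (-1.05, adjusted p = 0.0204 in limma), which leaves 1 untrained library whose spread is taken from the trained ones, and was -0.47 (adjusted p = 0.404 in limma) without untrained replicate 1. In CA1 and CA3, H2afy2 ranged from 38.2 to 65.9 and the groups overlapped. H2afy made up 83.9 to 93.3% of the combined macroH2A value, 62.5 to 81.7% per kilobase of all exons and 92.5 to 97.1% per kilobase of median transcript.

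H2afj, which encodes H2A.J (chr6:136808244-136810074, plus strand), an H2A variant made outside S phase, spread widely within groups. It was at 128, 85.4 and 65.2 in trained CA1 and 74.8 to 95.4 in untrained CA1, 83.5 to 95.01 and 90.8 to 91.1 in CA3, and 61.8 to 106 and 62.1 to 102 in DG. The groups overlapped in every subregion, and the log2 difference over all subregions was 0.04 (95% interval -0.23 to 0.31).

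H3f3b, the H3.3B gene (chr11:116021912-116027962, minus strand), was slightly higher in trained mice. It was at 1135, 1100 and 1053 in trained CA1 and at 934, 943 and 959 in untrained CA1. In CA3 it was at 1149, 1040 and 987 in trained and 1108 and 956 in untrained libraries, and in DG at 1204, 1070 and 1159 against 849 and 1087. The groups stood apart in CA1 and overlapped in CA3 and DG. In DG the log2 difference of 0.25 had an adjusted p of 0.17 in limma, and leaving out untrained replicate 1 or 3, either of which leaves 1 untrained library, moved it to 0.07 (adjusted p = 0.71) or 0.43 (0.00391). The log2 difference was 0.17 ± 0.05 (SE, n = 9 and 7 libraries of 3 and 3 mice) over all subregions, a fold of 1.125 (95% interval 1.04 to 1.22), with an adjusted p of 0.0424 in limma, and 0.0322 with the animal as a random effect. Leaving out an animal ended this call for trained replicates 1 (adjusted p = 0.2) and 2 (0.0996) and for untrained replicates 1 (0.121) and 2 (0.135) in limma. Within CA1 the difference was 0.21 ± 0.06 (SE) with an adjusted p of 0.0505 in limma. Over 13 alternatives that p ranged from 0.0413 to 0.182, and 4 of them passed.

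H3f3a, the H3.3A gene (chr1:180800832-180813943, minus strand), encodes the same protein and did not pass in any training comparison. It ranged from 881 to 1008 in trained and 939 to 1024 in untrained CA1, from 863 to 1037 and 927 to 1115 in CA3, and from 999 to 1076 and 921 to 972 in DG. The groups overlapped in CA1 and CA3 and stood apart in DG, where the log2 difference of 0.15 had an adjusted p of 0.288 in limma. The share of H3f3b in the pair was 53.0 to 54.5% in trained and 48.4 to 50.1% in untrained CA1, 52.3 to 54.7% and 49.8 to 50.8% in CA3, and 51.7 to 52.8% and 48.0 to 52.8% in DG. These are shares of estimated counts. Over the 16 libraries the share was 52.1 to 58.7% per kilobase of all exons and 31.8 to 37.8% per kilobase of median transcript. Of the windows of 31 bases in H3f3a transcripts 29.97% occur in other genes, against 11.2% for H3f3b, and the 5′ end of H3f3a overlaps the antisense gene H3f3aos, which was not analysed here.

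The difference with training was not shown to vary between subregions for any member. It was called for 0 of 8 members in CA1 against DG, where 2.75% of genes were called, in CA1 against CA3, where 0.0273% were, and in CA3 against DG, where 0.164% were, with 2, 0 and 3 members at an unadjusted p under 0.05 in limma, as were 17.8%, 6.71% and 11.7% of all genes. The training difference of H2afz was smaller in CA3 than in DG by a log2 value of -0.48 (95% interval -0.78 to -0.17), with an unadjusted p of 0.00353 and an adjusted p of 0.202 in limma, and by -0.31 (adjusted p = 0.572 in limma) without untrained replicate 1. For H2afy2 the difference between CA3 and DG was 0.92 (0.19 to 1.65), with an adjusted p of 0.304 in limma, and 0.36 (adjusted p = 0.846 in limma) without untrained replicate 1.

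Levels of the members also did not differ between subregions past the threshold. Of the 8 members 0 were called in CA1 against DG, CA1 against CA3 and CA3 against DG, beside 1.80%, 0.334% and 0% of all genes in limma, and each comparison had 1 member at an unadjusted p under 0.05. Of all genes 16.6%, 9.44% and 4.50% were at an unadjusted p under 0.05, in the same order. H2afv was higher in CA1 (mean 157) than in DG (123), by a log2 value of 0.40 ± 0.13 (SE) with an adjusted p of 0.113 in limma. Without trained replicate 3 it passed (0.54, adjusted p = 0.0378 in limma). H2afx was lowest in CA3, at 79.3 against 96.5 in CA1 and 94.1 in DG, with adjusted p values of 0.444 and 0.994 in limma. For H2afz the means were 515 in CA1, 561 in CA3 and 563 in DG, and neighbours in that order did not differ beyond their spread. The order was not the same among untrained libraries, where the mean was highest in CA3 (510), then CA1 (440) and DG (413).

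The factors that exchange H2A.Z or deposit H3.3 included 1 gene called higher with training and a few called lower. Of 23 H2A.Z exchange genes, 1 was called higher and 2 lower over all subregions in limma, beside 6.28% and 4.06% of all genes, with a median log2 difference of -0.01, equal to that of all genes. Morf4l2, a TIP60 complex member, was higher by 0.13 (adjusted p = 0.0277), and Ing3 (-0.30, 0.0287) and Mbtd1 (-0.23, 0.0116), members of the same complex, were lower in limma. Mbtd1 was at 316 to 412 in trained and 386 to 502 in untrained libraries. Within CA1, CA3 and DG, 0 of the 23 were called in limma, and 6, 5 and 7 had an unadjusted p under 0.05, as had 18.9%, 15.8% and 19.5% of all genes. The training difference of Srcap, the ATPase of the SRCAP complex, was called as different between CA1 and DG (0.35, adjusted p = 0.0379 in limma). It was 0.11 in CA1 and -0.24 in DG, neither of which was called. This contrast follows the split of libraries by genes at 0, and Srcap was added after its values were seen.

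Of 9 tested H3.3 deposition genes, 2 were called lower and 0 higher over all subregions, where 4.06% of all genes were called lower, with a median of -0.13. These were Hira, the H3.3 chaperone (-0.19, adjusted p = 0.0214), and Dek (-0.22, 0.023) in limma. Hira was at 407 to 511 in trained and 457 to 540 in untrained libraries, so the groups overlapped. In DG, Atrx (-0.29, adjusted p = 0.0284) and Ubn2 (-0.30, 0.0372) were called lower in limma, as were 1.66% of all genes, and the median of the 9 was -0.21, with 1 above 0. Atrx was at 2795 to 2990 in trained and 3290 to 3751 in untrained DG.

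Among 14 tested general histone chaperones, 1 was called higher and 2 lower over all subregions in limma, beside 6.28% and 4.06% of all genes, with a median of -0.06. Nap1l2, a nucleosome assembly protein of neurons, was higher by 0.20 (adjusted p = 0.0177), and Ssrp1 (-0.13, 0.0344) and Supt16 (-0.13, 0.0435), which together form the FACT complex, were lower in limma. In DG, Nap1l5 (-0.34, adjusted p = 0.0419) and Ncl, which encodes nucleolin (-0.27, 0.0482), were called lower in limma, as were 1.66% of all genes. Ncl was at 2193 to 2348 in trained and 2056 to 2138 in untrained CA1 (0.13, adjusted p = 0.186 in limma), and its training difference was called as different between CA1 and DG (0.40, adjusted p = 0.0225 in limma). That contrast, too, follows the split of libraries by genes at 0. The 3 linker and centromere variants had 0 called over all subregions in limma, 0 with an unadjusted p under 0.05, and a median of 0.16.

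The clustered histone genes, which make the replication-dependent histones and whose main transcripts lack poly(A) tails, included more genes called higher than lower. A gene that passes the filter on low values only through trained libraries has to differ, and 33 of the 45 genes tested over all subregions passed in untrained libraries alone. Counts are therefore given for those that did, a choice made after seeing the data. Over all subregions 12 of 33 such genes were called higher and 0 lower in limma, beside 6.41% of all genes called higher under the same filter, with a median log2 difference of 0.69 beside -0.01. In CA1 6 of 25 were called higher (3.54% of all genes), in CA3 1 of 28 (0.755%) and in DG 2 of 26 (1.53%), and 0 lower. Without any filter 14 of 68 were called higher over all subregions, 54 lay above 0 and the median was 0.39. Hist4h4 was at 88.4 to 118 in trained and 31.4 to 40.2 in untrained CA1, with a log2 difference of 1.46 and an adjusted p of 0.000182 in limma. Hist1h4h was at 146 to 210 in trained and 60.3 to 88.4 in untrained CA1 (1.23, adjusted p = 0.00021 in limma). Hist2h4 (1.07, adjusted p = 0.00229) and Hist1h2bc (0.52, 0.00283) were called over all subregions in limma. The first 3 encode histone H4. Of the 31-base windows, 220 of 440 for Hist1h4h, 33.5% for Hist1h2bc, 14.3% for Hist4h4 and 2.56% for Hist2h4 occur in other genes. Separate values are thus least certain for Hist1h4h and Hist1h2bc. The summed markers of dividing cells, given with H2A.X, were lower in trained libraries, with Cdk1 in DG as an exception.

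**Figure D5:**
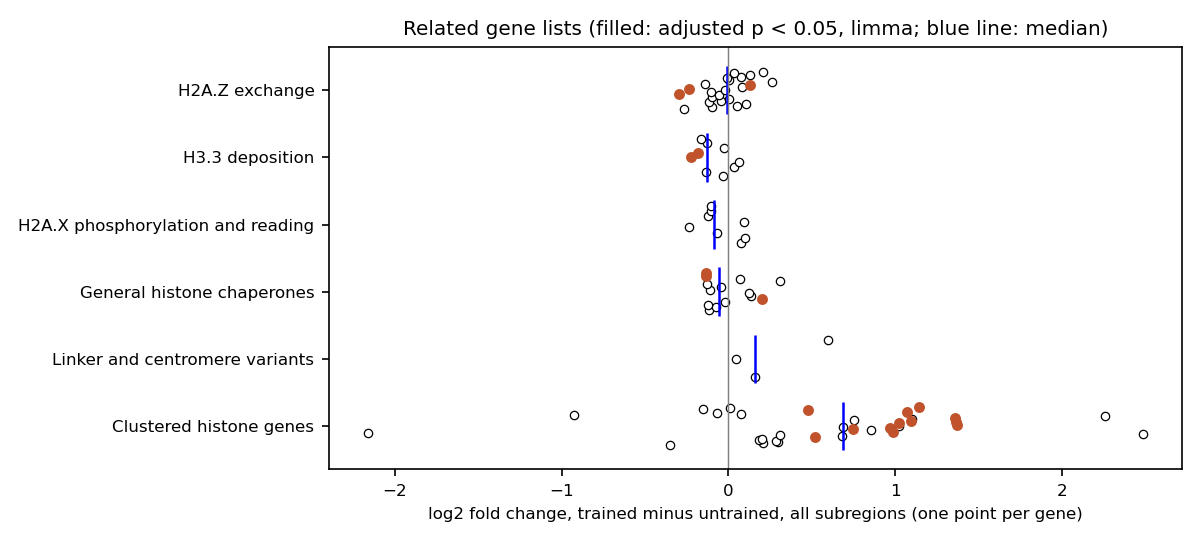
Log2 fold change over all subregions, trained minus untrained (x axis), of each gene in 6 lists (rows), with the clustered histone genes held to the 33 that passed the filter in untrained libraries alone; filled points have an adjusted p under 0.05 in limma and blue lines are list medians. The clustered histone genes have a median of 0.69, while the medians of the other lists lie between -0.13 and 0.16.

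The genes most like each called member were those with the highest r of log2 values over the 16 libraries after removal of subregion means, among 10767 genes with a mean of at least 50; the training difference is part of each r, and the points share animals. For H2afz they were Csad (r = 0.95), Tsen34 (0.94) and Azin1 (0.92), all called higher in trained libraries over all subregions, Csad by a log2 value of 0.43 (adjusted p = 0.00259 in limma). For H2afx they were S100pbp (0.93), Usp29 (0.88) and Mfap3 (0.87), all called lower, S100pbp by a log2 value of -0.24 (adjusted p = 0.016 in limma). For H3f3b they were Hist4h4 (0.91), Jund (0.90) and Pkig (0.90). Hist4h4 (1.14, adjusted p = 0.00418) and Jund, an AP-1 transcription factor subunit (0.43, 0.00424), were called higher and Pkig (0.25, 0.107) was not, in limma.

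A sex-linked difference runs alongside all of these results. With a score of sex-linked transcripts as a covariate over all subregions, 0 of 14673 genes were called in limma and 1702 had an unadjusted p under 0.05. The log2 difference was then 0.30 for H2afz (adjusted p = 0.504), -0.10 for H2afx (0.931) and -0.05 for H3f3b (0.934) in limma. Without the 2 libraries with high Xist and Ddx3y over 150 (untrained CA3 replicate 1 and trained DG replicate 3) the differences were 0.45, -0.43 and 0.205, with adjusted p values of 0.00167, 0.0182 and 0.0273 in limma. Without all 5 libraries with high Xist and Ddx3y over 50, which left 5 trained and 6 untrained, they were 0.47, -0.435 and 0.22, with adjusted p values of 0.0169, 0.083 and 0.083 in limma, so that H2afz alone of the 3 passed. No comparison within one sex with more than 1 library in each group could be made, since only 1 untrained library had high Xist and no trained library had low Xist. With the score 0 genes of the 6 lists were called. The median of the 33 clustered histone genes that passed the filter in untrained libraries alone was then 0.30, with 24 above 0. Without the 2 libraries 13 of the same 33 clustered histone genes were called higher and 1 H2A.Z exchange gene lower, while 0 H3.3 deposition genes and 0 general chaperones were called in limma. Without the 5 libraries 6 of the 33 clustered histone genes were called higher and 0 genes of the other 5 lists were called. The median of the 33 was then 0.75, beside 0.69 in the main fit. The median of the H3.3 deposition genes was -0.13 in both fits.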

How the data were processed

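Bulk RNA sequencing was done on rRNA-depleted RNA of 16 libraries. The deposited signal values are normalized estimated counts: per the labels and methods the authors used bcl2fastq 2.20, FastQC, Trim Galore, STAR, Salmon and DESeq2, with GRCm38 named as the build (the methods also name another). The scaling and the depth of each library are not given in the sources used here, so counting intervals are not given. Because values were not whole, no count test was used, and limma 3.58.1 (R 4.3.3) was run on log2(value + 2) over all genes with at least 10 in at least 3 libraries (CA1) or 2 libraries (other comparisons), with a trend, robust estimation and Benjamini-Hochberg adjustment at 0.05. A fold change on this scale understates low genes. The fit over all subregions had the subregion as a term, interactions came from 1 fit of 6 groups, and subregions were compared with the animal as a block. The method was tested on simulated data: of 200 genes changed by 1 on the log2 scale, 81.5% were called in CA1 (13522 genes tested), 73% in CA3 (13808), 65.5% in DG (13776) and 96.5% over all subregions (14663). The planted change was larger than that of any member in the main fits, and noise was drawn for each library without shared animals. These shares therefore do not give the power for the differences reported here. Coding and promoter sequences came from GENCODE and RefSeq, and 31-base windows were compared with all GENCODE transcripts on both strands. Python 3.11.15 was used for tables and figures. The members and the gene lists were chosen with earlier results of these data known. Named genes were the 8 members, up to 4 genes of each list with the lowest adjusted p in a training comparison, and the 3 genes most like each called member. Tmcc1, Srcap and Ncl were added after their values were seen. Libraries with one replicate number in both training groups came from different mice.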

Additional observations from a re-analysis of the deposited data

How the results depend on the processing

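The depth of the libraries is not known, and groups of 2 or 3 mice let 1 animal set many calls. The log2 difference of H2afz over all subregions stayed above 0 under every alternative that used its own value, with adjusted p from 0.00136 to 0.00567 in limma on leaving out 1 animal. It no longer passed with the sex-linked score (0.30). With Tmcc1 added, an alternative chosen after seeing the data, the difference was 0.03 ± 0.04 (SE) and did not pass. That sum differed by 0.01 in CA1, 0.15 in DG and -0.058 in CA3. Also chosen after seeing the data were leaving out the 2 libraries with mixed sex-linked transcripts, the animal as a random effect over all subregions, the choice of clustered histone genes by untrained libraries, and leaving out all 5 libraries with high Xist and Ddx3y over 50. The causes of the changes below were not tested.

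With no filter on low values, the genes called went from 710 to 1877 in CA1, from 404 to 2039 for the training effect in CA1 against DG, and from 264 to 162 in CA1 against DG, and H3f3b over all subregions had an adjusted p of 0.0681 in limma, with 0 general chaperones called lower in place of 2. A minimum in every library gave 200 for CA1 against DG effects. Upper-quartile rescaling gave 7 in place of 4 (CA1 against CA3 effects) and 12 in place of 24 (CA3 against DG effects). For CA3, 1 fit of all libraries gave 413 in place of 118. Over all subregions, 1517 became 0 with the sex-linked score, 978 without the 2 mixed libraries, and 323 without the 5.

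Directions turned for H2afy2 (0.435), H2afj (-0.295) and H3f3b (-0.049) with the sex-linked score, for H2afy (-0.012) and H3f3a (0.012) with the split by genes at 0 as a term, and for H3f3a without the 2 mixed libraries (0.021) or the 5 (0.056). None of these passed in limma.

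Replicate numbers shared by trained and untrained mice name different animals, and same-numbered libraries had deviations correlated from -0.204 to 0.099. With the replicate number as a block, CA3 had 1160 called genes, and H2afz (adjusted p = 0.000986), H2afx (0.0213) and H3f3b (0.0465) passed over all subregions in limma. Without the animal as a block, CA1 against CA3 had 31 in place of 49.

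Leaving out 1 animal gave 329 to 865 called genes in CA1, 7 to 680 in CA3, 28 to 1583 in DG and 456 to 1873 over all subregions. For effects of training it gave 24 to 355 (CA1 against DG), 0 to 69 (CA1 against CA3) and 0 to 72 (CA3 against DG), and for subregions 18 to 244, 0 to 66 and 0 to 1 in the same order. Directions turned in CA1 for H2afv (-0.032 to 0.175), H2afy2 (-0.098 to 0.181), H2afj (-0.158 to 0.316) and H3f3a (-0.088 to 0.009). In CA3 they turned for H2afy (-0.076 to 0.042), H2afy2 (-0.103 to 0.423), H2afj (-0.068 to 0.023), H3f3a (-0.26 to 0.006) and H3f3b (-0.068 to 0.144), and in DG for H2afj (-0.303 to 0.389). Over all subregions they turned for H2afy (-0.022 to 0.071), H2afj (-0.112 to 0.173) and H3f3a (-0.056 to 0.013), and between CA3 and DG for H2afz (-0.128 to 0.08).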
